A study of Mus musculus with 7 samples.

Results

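The let-7 miRNAs and miR-98 were examined in the mouse hippocampus. The members were the 9 guide products mmu-let-7a, mmu-let-7b, mmu-let-7c, mmu-let-7d, mmu-let-7e, mmu-let-7f, mmu-let-7g, mmu-let-7i and mmu-miR-98 (written without the mouse prefix below), taken by name and without regard to their levels. They are 9 of the 756 mature miRNA sequences with a read, and they come from 12 of the 806 mature loci. All 9 passed the filter for testing, a mean of at least 10 reads per library, which 476 sequences passed in all.

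The study asked whether protein phosphatase 1 (PP1), an enzyme that restrains memory, and learning itself alter hippocampal miRNAs. NIPP1 holds PP1 inactive in the nucleus, and in NIPP1* mice the part of it that binds PP1 is made as an EGFP fusion. Its tetO promoter responds to a reverse tetracycline transactivator, for which CaMKIIalpha supplies the promoter. Doxycycline in the food therefore switches the fragment on in forebrain neurons, while the whole hippocampus was sequenced. All mice were adult C57BL/6 animals aged 3 to 5 months. Trained mice had explored objects in an object recognition task, and non-trained mice had only been placed in the chamber.

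RNA was pooled over animals before sequencing, and how the animals of a group were divided among its libraries is not given in the sources used here. Library 1 holds non-trained controls and library 2 non-trained NIPP1* mice, with 1 library each. Libraries 3, 4 and 5 carry the label of trained controls, and libraries 6 and 7 that of trained NIPP1* mice. The p-values below measure the spread between these libraries, which may be technical. Small RNA reads do not cover the transgene, so the genotype was not checked in the data.

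The deposited group means place the trained libraries the other way round. When each deposited mean was fitted as a weighted sum of the 7 libraries over 284 miRNAs, the mean named for trained wildtype mice took all its weight from libraries 6 and 7, and the mean named for trained NIPP1 mice from libraries 3, 4 and 5. The relative error of these fits was 0.00628% and 0.00414%. The groups follow the labels here, and the values with both trained groups exchanged are given beside the comparisons that need them. The comparison of all trained with all non-trained libraries does not depend on this choice. Libraries 4 and 5 also stood apart from the rest in the base composition of their miRNA reads, and values without them are also given below.

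The let-7 miRNAs are among the most conserved miRNAs of animals. A miRNA guides a silencing complex to mRNAs that pair with its seed, the bases near its 5′ end, and the mRNA is then degraded or poorly translated. Members of this family are scarce in stem cells, where LIN28 proteins block the maturation of their precursors, and abundant in differentiated neurons, where they restrain growth genes such as Lin28, Hmga2 and Myc family genes.

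The mature sequences show what the members share and where they differ, which matters below because base composition moves with their levels. They were taken from RefSeq (5′ to 3′), and the capitals mark the seed, bases 2 to 8 from the 5′ end.
let-7a: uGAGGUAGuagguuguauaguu
let-7b: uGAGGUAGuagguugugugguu
let-7c: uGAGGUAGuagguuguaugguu
let-7d: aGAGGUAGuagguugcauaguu
let-7e: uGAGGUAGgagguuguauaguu
let-7f: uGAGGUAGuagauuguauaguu
let-7g: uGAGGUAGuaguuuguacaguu
let-7i: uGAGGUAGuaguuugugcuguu
miR-98: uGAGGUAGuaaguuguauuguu

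All 9 have 22 bases and the same seed, GAGGUAG. Against let-7a, with positions counted from 1 at the 5′ end and the base of let-7a written first, let-7c differs by A19G, let-7e by U9G and let-7f by G12A. let-7b carries A17G and A19G, let-7d carries U1A and U16C, and miR-98 carries G11A and A19U. let-7g carries G12U and U18C, and let-7i, the member farthest from let-7a, carries G12U, A17G, U18C and A19U. Of the 36 pairs of members, 4 differ at 1 base only, so a read with a mismatch could be counted under a neighbour. G and C bases make up 31.8% of let-7f and miR-98, 36.4% of let-7a and let-7g, 40.9% of let-7c, let-7d, let-7e and let-7i, and 45.5% of let-7b. RefSeq lists 11 mouse mature miRNAs with this seed among 1679, and the other 2, let-7k and miR-1961, were not analysed here.

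The family was the most abundant seed group of the hippocampus. Its summed level was 20.2% ± 1.78 (SD, n = 7) of the miRNA reads, ahead of the seed of miR-29 at 14.9% and that of miR-9 at 12.8%. By library, the family took 18.8% and 17.79% in library 1 and library 2, both non-trained. It took 19.49%, 21.98% and 22.61% in the trained control libraries 3, 4 and 5, and 21.17% and 19.32% in the trained NIPP1* libraries 6 and 7. All 5 trained libraries thus lay above both non-trained libraries, by as little as 19.32% against 18.8%. Taken singly, 3.36% of the 476 miRNAs also had all trained libraries higher. The mean of the trained libraries over that of the non-trained ones was 0.19 on the log2 scale, a sum over members that was not tested.

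**Figure D1:**
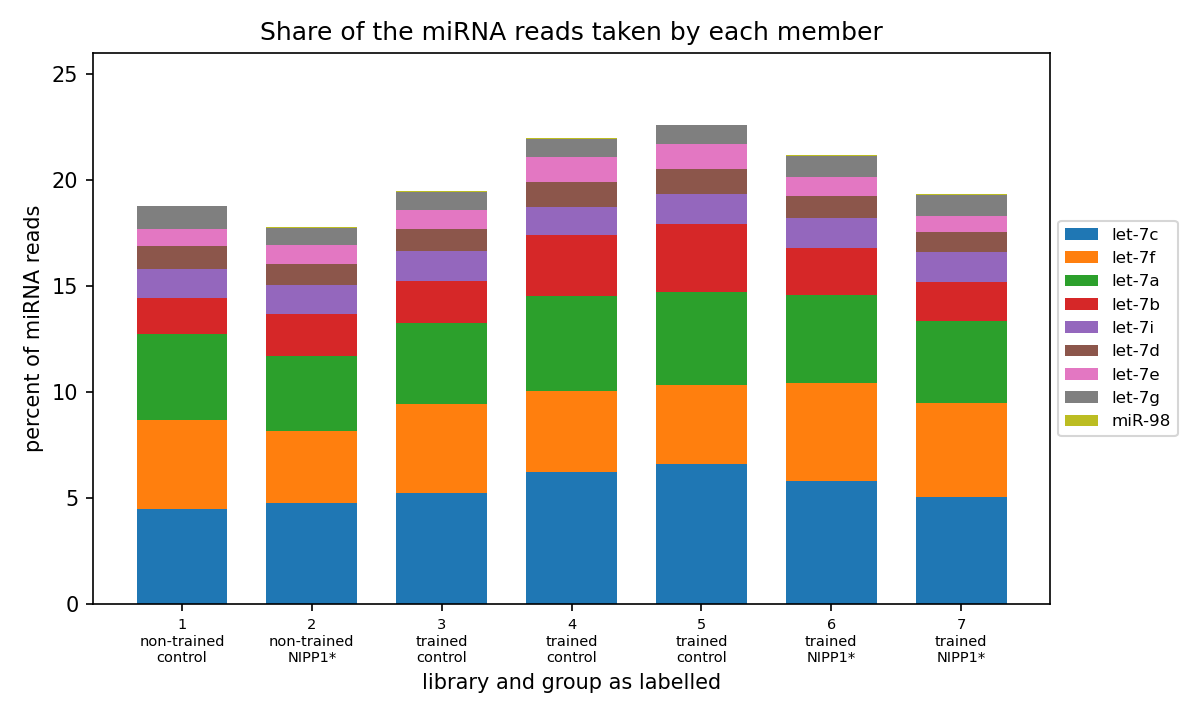
Percent of the miRNA reads of each library taken by each of the 9 members, stacked from the most to the least abundant, with the libraries and their labelled groups on the x axis. The summed share ran from 17.79% in library 2 to 22.61% in library 5, and miR-98 is barely visible at the top.

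The members spanned a wide range of levels. All lengths are equal, so reads per 1000000 miRNA reads (RPM) compare the members directly. Over the 7 libraries, let-7c was the most abundant at 54500 ± 7850 RPM (SD, n = 7), rank 5 of all sequences. Next came let-7f at 40520 ± 4210 RPM and let-7a at 40500 ± 3480 RPM. These members, made from paired hairpins, led the family. let-7b followed at 22440 ± 5600 RPM and let-7i at 14130 ± 290 RPM. let-7d stood at 10520 ± 831 RPM, let-7e at 9473 ± 1680 RPM and let-7g at 9217 ± 815 RPM. miR-98, which shares the seed but bears another name, was the least abundant at 366.7 ± 48.6 RPM, rank 116. Ligation and amplification favour some sequences over others, so the order describes reads and may differ from that of molecules.

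Some neighbours in this order could not be separated. let-7f was above let-7a in 4 libraries and below it in 3, with a mean log2 ratio of 0.00 ± 0.18 (SD, n = 7). let-7d exceeded let-7e in 5 of 7 libraries and let-7e exceeded let-7g in 3 of 7. let-7c was above let-7f in 7 of 7 libraries, although the ranges of both overlap. The steps from let-7a to let-7b, from let-7b to let-7i, from let-7i to let-7d and from let-7g to miR-98 held in all 7 libraries without any overlap of the ranges. Together let-7a, let-7c and let-7f made up between 65.13% and 69.0% of the family in each library.

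Within the family, let-7b varied most and let-7i least. let-7b was at 17020 and 19760 RPM in libraries 1 and 2, at 19510, 28520 and 31920 RPM in libraries 3, 4 and 5, and at 21920 and 18440 RPM in libraries 6 and 7. Its highest library was 1.88 times its lowest. let-7i was at 14090, 14080, 14460, 13570, 14160, 14410 and 14120 RPM in libraries 1 to 7, a coefficient of variation (CV, the SD as a percent of the mean) of 2.06%. The median CV of the members was 10.4%, against 10.8% for the 107 other miRNAs more abundant than miR-98 and 15.7% for all 476 tested.

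let-7e was at 8458 and 8685 RPM in libraries 1 and 2, at 8645, 11890 and 11920 RPM in libraries 3, 4 and 5, and at 8706 and 8006 RPM in libraries 6 and 7. let-7c was at 44780, 47650, 52360, 62100, 66190, 58020 and 50430 RPM in libraries 1 to 7. let-7a was at 40460, 35060, 38280, 44850, 44180, 41980 and 38670 RPM. These 3 members and let-7b were highest in libraries 4 and 5. let-7d, at 10410, 9935, 10450, 11550, 11680, 10210 and 9389 RPM in libraries 1 to 7, shared that pattern in a narrower range.

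let-7f moved otherwise, at 41900 and 34120 RPM in libraries 1 and 2, 42080, 38440 and 36910 RPM in libraries 3, 4 and 5, and 45990 and 44230 RPM in libraries 6 and 7. let-7g was at 10480, 8298, 8723, 8561, 8884, 10020 and 9554 RPM in libraries 1 to 7. miR-98 was at 391.6, 323.4, 401.9, 341.1, 289.6, 419.3 and 399.8 RPM. Libraries 6 and 7 were among the 3 highest for each of these members. Library 2 was the lowest for let-7f and let-7g, and library 5 for miR-98.

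**Figure D2:**
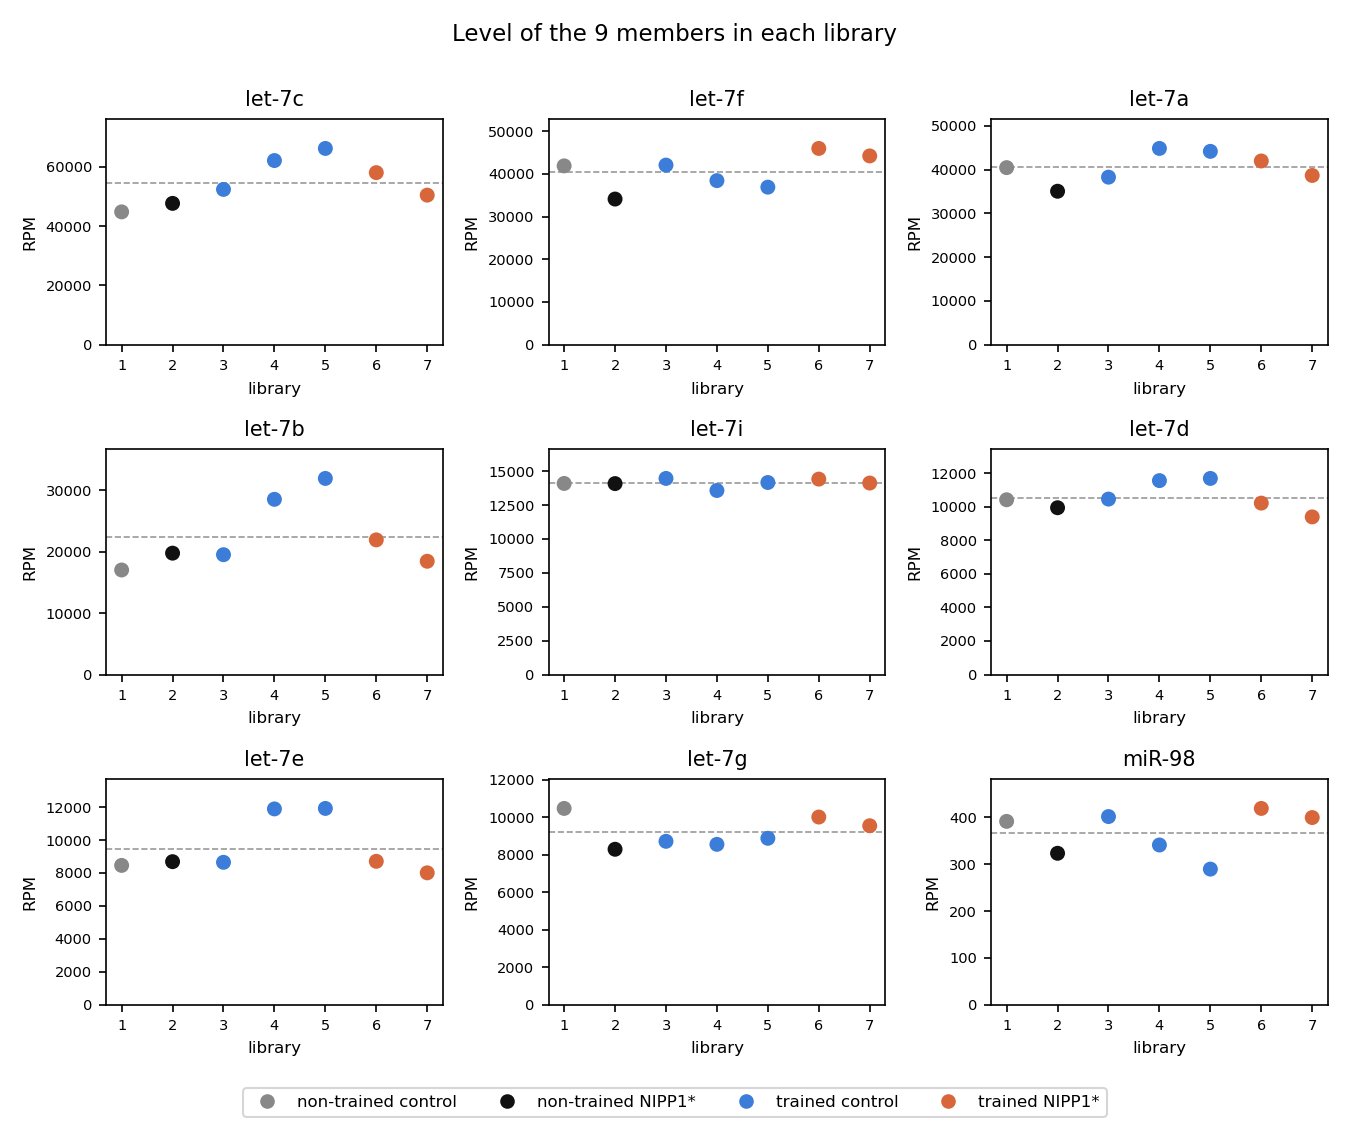
Level of each member in reads per 1000000 miRNA reads (RPM, linear axis from 0) in libraries 1 to 7, coloured by labelled group, with the mean of the 7 libraries as a dashed line. let-7b and let-7e stand high in libraries 4 and 5, let-7i is flat, and miR-98 is lowest in library 5 at 289.6 RPM.

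The 12 loci lie on 7 chromosomes, and most are clustered (positions of the mature product in NCBI37/mm9, counted from 1, annotation GENCODE M1). On chromosome 13, minus strand, let-7a-1 (chr13:48633608-48633629), let-7f-1 (chr13:48633258-48633279) and let-7d (chr13:48631447-48631468) follow one another in no annotated host gene. The gaps between their mature products are 328 and 1789 bp. On chromosome 15, plus strand, let-7c-2 (chr15:85537046-85537067) and let-7b (chr15:85537755-85537776) have mature products 687 bp apart, also without a host gene. On chromosome X, plus strand, let-7f-2 (chrX:148346896-148346917) and miR-98 (chrX:148347772-148347793) lie 854 bp apart in an intron of Huwe1, which encodes a ubiquitin ligase.

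The remaining loci sit alone or beside other miRNAs. let-7a-2 (chr9:41344815-41344836, plus strand) is in an intron of the lincRNA gene D230004N17Rik, with miR-100 and miR-125b-1 on either side. let-7c-1 (chr16:77599917-77599938, plus strand) lies between miR-99a and miR-125b-2, opposite in strand to an intron of Gm11146. let-7e (chr17:17967330-17967351, plus strand) lies between miR-99b and miR-125a, 112 and 429 bp from their nearest mature products and in no host gene. let-7g (chr9:106081177-106081198, plus strand) is in an intron of Wdr82, a subunit of histone methyltransferase complexes, and let-7i (chr10:122422754-122422775, minus strand) has no annotated host.

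Members that share a cluster did not always vary together. Across the 7 libraries, Pearson's r of the log2 levels was 0.94 for let-7b and let-7c and 0.88 for let-7f and miR-98, which share the clusters on chromosomes 15 and X. Within the cluster on chromosome 13 it was 0.77 for let-7a and let-7d but 0.17 for let-7a and let-7f and -0.39 for let-7d and let-7f. Members without a shared cluster also reached high values, 0.95 for let-7b and let-7e and 0.93 for let-7d and let-7e. These values describe 7 libraries in which base composition also moved with the levels, and let-7a, let-7c and let-7f each sum over a pair of loci.

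let-7a, let-7c and let-7f are each made from a pair of hairpins with the same mature product, and the files give a value for each copy. The copies differed little but always in one direction. let-7f-2 exceeded let-7f-1 by 2.78% to 3.21% of their mean in all 7 libraries, let-7c-2 exceeded let-7c-1 by 0.793% to 1.24%, and let-7a-1 exceeded let-7a-2 by 0.119% to 0.181%. The last digit of the deposited values is finer than these differences. The values of both copies hold nearly the same reads, so they do not tell how much each hairpin contributed. In each pair, the hairpin whose mature product is followed by UU had the higher value, as the continuation of the mature sequence shows, with the next bases in capitals (RefSeq hairpins).
let-7a-1: ugagguaguagguuguauaguuUUAG
let-7a-2: ugagguaguagguuguauaguuUAGA
let-7c-1: ugagguaguagguuguaugguuUAGA
let-7c-2: ugagguaguagguuguaugguuUUGG
let-7f-1: ugagguaguagauuguauaguuGUGG
let-7f-2: ugagguaguagauuguauaguuUUAG

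The first question was whether training moved the family, over both genotypes. Of the 9 members, 8 had a higher mean in the 5 trained than in the 2 non-trained libraries, and none passed the test. The test was limma on log2(RPM + 0.5), a scale that hardly alters members this abundant, with Benjamini-Hochberg adjustment over all 476 miRNAs. limma called 0 of 9 members and 0.0% of the 476 miRNAs. At an unadjusted p under 0.05 it gave 1 member, let-7c, and 26 miRNAs in all (5.46%). These became 0 members and 6 miRNAs without library 1, 1 and 14 without library 2, 1 and 16 without library 6, and 2 and 21 without library 7. On the recovered reads, edgeR's quasi-likelihood test called 0 miRNAs and DESeq2's Wald test 1, neither of them a member. The median log2 fold change was 0.13 for the members and -0.06 for all miRNAs. The members' median was 0.03, with 6 of 9 higher, without library 2, and 0.07, with 7 of 9 higher, without libraries 4 and 5. With TMM, another scaling of the libraries, all 9 were higher, with a median of 0.195 against 0.0085 for all miRNAs.

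let-7c was the member without overlap between trained and non-trained libraries. Its 5 trained libraries, from 50430 to 66190 RPM, lay above both non-trained libraries, at 44780 and 47650 RPM. Non-overlap in this direction was found in 1 of 9 members and in 3.36% of the 476 miRNAs, and 0 members and 8.19% of all miRNAs had all trained libraries below both non-trained ones. The log2 fold change of let-7c was 0.32 (standard error, SE, 0.11, adjusted p = 0.816 in limma). Without libraries 4 and 5 it was 0.21, and the adjusted p over all alternatives lay between 0.552 and 0.997. The summed level of 4 blood vessel miRNAs also had no overlap, from 15490 to 18450 RPM in trained and from 14790 to 14820 RPM in non-trained libraries. Its part in the result was not tested, and more vessel cells or more RNA per cell cannot be told apart in bulk tissue.

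The other members overlapped between trained and non-trained libraries. let-7b had a log2 fold change of 0.36 (SE 0.21) and let-7e one of 0.18 (SE 0.17), and without libraries 4 and 5 these were 0.12 and -0.02. let-7a was at 0.14 (SE 0.10), let-7f at 0.13 (SE 0.12) and let-7d at 0.06 (SE 0.10). None of these reached an unadjusted p under 0.05. miR-98 was at 0.04 (SE 0.17). let-7i, at 0.0057 (SE 0.07), and let-7g, at -0.03 (SE 0.11), lay closest to 0. The sign of let-7g changed with the scaling, and that of let-7d and let-7e with libraries 4 and 5 left out. miR-98 was then at 0.19, let-7f at 0.22 and let-7a at 0.07. Leaving out 1 library also turned the sign of let-7f, let-7g, let-7i and miR-98. let-7f was at -0.02 without library 2 and at 0.28 without library 1, miR-98 at -0.09 and 0.18, let-7g at -0.20 and 0.14, and let-7a at 0.04 and 0.24.

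Within controls, the trained libraries 3, 4 and 5 were compared with library 1, the single non-trained control, which borrows its spread from the trained groups. By limma, 0 of 9 members and 0.0% of 476 miRNAs were called. Unadjusted, 2 members and 28 miRNAs (5.88%) had a p under 0.05, edgeR called 0 miRNAs and DESeq2 1, which was no member. The unadjusted counts rose to 4 members and 107 miRNAs without library 3, and fell to 0 and 13 without library 4, 0 and 16 without library 5, 1 and 17 without library 6, and 1 and 15 without library 7. With the trained groups exchanged these were 0 members and 12 miRNAs, and without libraries 4 and 5 they were 0 and 17. The median log2 fold change was 0.07 for the members and -0.09 for all miRNAs. The members' median was 0.14 without library 3, 0.02 without library 4, 0.03 without library 5 and also without both libraries 4 and 5, and 0.02 with the trained groups exchanged. With TMM it was 0.16, against -0.0023 for all miRNAs, and 0.21 once the slope on GC content was removed from each library (the GC adjustment).

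The 3 largest differences were those of members that stand high in libraries 4 and 5. let-7b had a log2 fold change of 0.62 (SE 0.26), let-7c one of 0.42 (SE 0.15) and let-7e one of 0.34 (SE 0.20), each with a limma adjusted p of 0.666. For let-7e, library 3 at 8645 RPM lay next to library 1 at 8458 RPM, so the difference came from libraries 4 and 5. Without both libraries, the 3 values were 0.20, 0.23 and 0.03. After the GC adjustment they were larger, at 0.66, 0.53 and 0.44. let-7g was lower than in library 1 in all 3 trained control libraries, with a log2 fold change of -0.26 (SE 0.11, adjusted p = 0.666 in limma). This value was -0.17 with TMM and -0.10 after the GC adjustment. let-7d was at 0.11, let-7a at 0.07, let-7i at -0.0032, let-7f at -0.10 and miR-98 at -0.20. Without libraries 4 and 5 these were 0.0055 for let-7d, -0.08 for let-7a, 0.04 for let-7i, 0.0065 for let-7f and 0.04 for miR-98. With each library left out in turn, let-7a ran from 0.02 to 0.14, let-7f from -0.15 to -0.06 and miR-98 from -0.32 to -0.08. With the trained groups exchanged, let-7b was at 0.24, let-7c at 0.27, let-7e at -0.02 and let-7g at -0.10.

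Within NIPP1* mice, libraries 6 and 7 were compared with library 2. limma called 0 of 9 members and 0.0% of 476 miRNAs, with 1 member and 21 miRNAs (4.41%) at an unadjusted p under 0.05, while edgeR called 0 and DESeq2 2 miRNAs, none of them a member. The unadjusted counts were 2 members and 34 miRNAs without library 3, 0 and 10 without library 6, and 1 and 14 without library 7, where the remaining NIPP1* library is taken to vary like the controls. let-7f had a log2 fold change of 0.40 (SE 0.12, adjusted p = 0.834 in limma), from 34120 RPM in library 2 to 45990 and 44230 RPM. miR-98, its neighbour in Huwe1, was at 0.34 (SE 0.23), let-7g at 0.24 (SE 0.12), let-7a at 0.20 (SE 0.13) and let-7c at 0.18 (SE 0.16). Of these, let-7c was at 0.08 without library 6 and at 0.28 without library 7. let-7b, let-7d, let-7e and let-7i lay between -0.06 and 0.02. After the GC adjustment let-7f was at 0.25, miR-98 at 0.19, let-7g at 0.12, let-7a at 0.09 and let-7c at 0.11. With the trained groups exchanged, let-7f was at 0.20, miR-98 at 0.08, let-7g at 0.07, let-7a at 0.27, let-7c at 0.33 and let-7b at 0.40, and 0 members had an unadjusted p under 0.05. The median log2 fold change was 0.18 for the members and -0.03 for all miRNAs. The members' median was 0.08, with 6 of 9 higher, without library 6, and 0.09, with 5 of 9 higher, after the GC adjustment. It was 0.26, with 9 of 9 higher, without library 7, and 0.205, with 8 of 9 higher, with TMM.

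**Figure D3:**
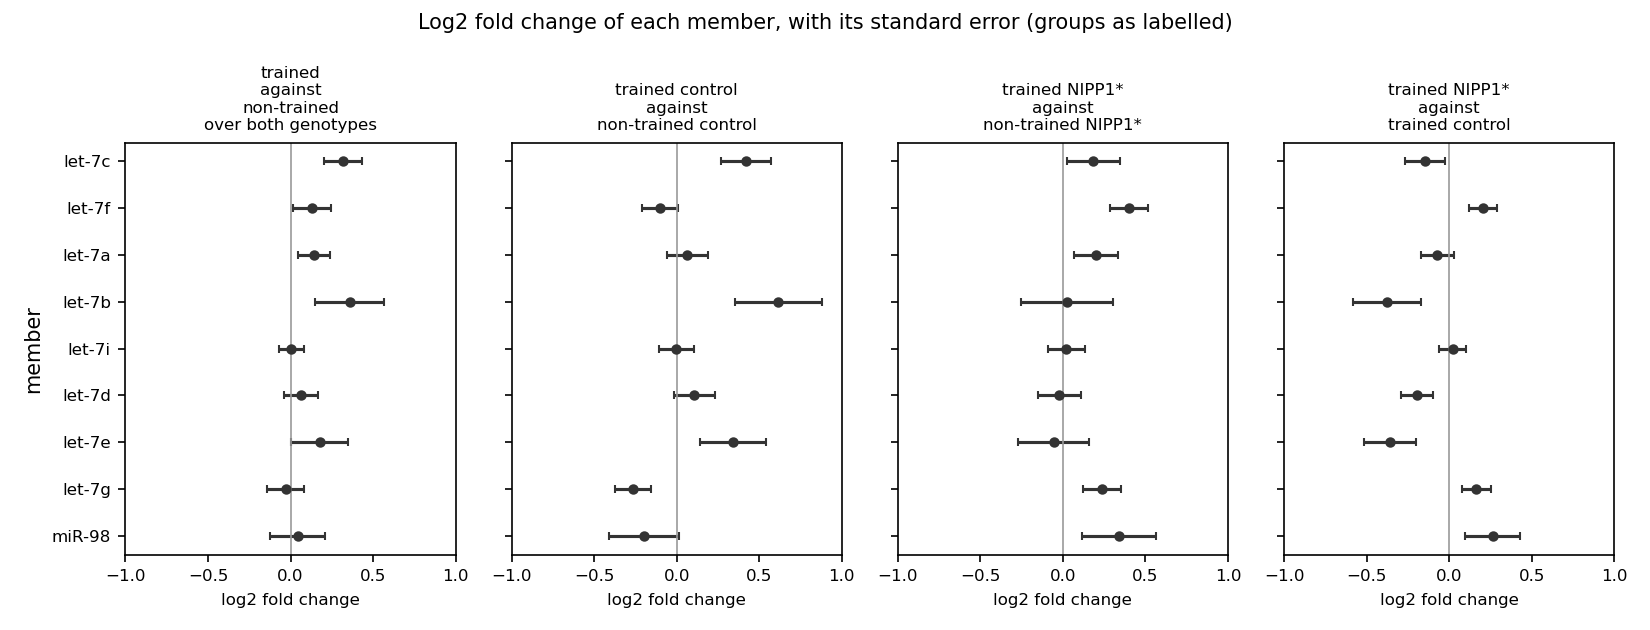
Log2 fold change on the log2(RPM + 0.5) scale of each member (points) with its standard error (bars) in 4 comparisons, groups as labelled. let-7c lies right of 0 in the 3 comparisons of trained with non-trained mice, and limma called none of the members in any of them.

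The training differences of both genotypes were also compared directly. limma called 0 of 9 members and 0.0% of 476 miRNAs, 2 members and 37 miRNAs (7.77%) had an unadjusted p under 0.05, and edgeR called 0 and DESeq2 2 miRNAs, no member among them. The unadjusted counts depended on single libraries, with 5 members and 85 miRNAs without library 3, 2 and 24 without library 4, 0 and 23 without library 6, and 2 and 22 without library 7. They were 0 and 6 with the trained groups exchanged and 0 and 29 after the GC adjustment. The differences of let-7f and let-7g were both 0.50 on the log2 scale (SE 0.16, adjusted p = 0.577 in limma), so the training difference was more positive in NIPP1* mice than in controls. For both members the non-trained NIPP1* library lay below the non-trained control library, and this gap is part of the value. This value was 0.13 for let-7f and 0.23 for let-7g after the GC adjustment, and 0.09 and 0.17 with the trained groups exchanged. let-7b was at -0.59 (SE 0.38), let-7e at -0.40 (SE 0.29) and miR-98 at 0.54 (SE 0.31). These 3 values moved towards 0 without libraries 4 and 5, to -0.17, -0.09 and 0.30. With the trained groups exchanged, let-7b was at 0.16, let-7e at 0.32 and miR-98 at 0.01, and the GC adjustment left miR-98 at 0.16. The same adjustment took the members' median from 0.02, with 4 of 9 lower, to -0.16, with 6 of 9 lower.

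Between the trained groups, libraries 6 and 7 were compared with libraries 3, 4 and 5, and this direction turns round if the labels are exchanged. limma called 0 of 9 members and 0.0% of 476 miRNAs, with 1 member and 34 miRNAs (7.14%) at an unadjusted p under 0.05. edgeR called 0 miRNAs and DESeq2 1, not a member. The unadjusted counts rose to 6 members and 116 miRNAs without library 3. They fell to 0 members without each of libraries 4, 5, 6 and 7, with 17, 11, 16 and 9 miRNAs. As labelled, let-7f was higher in trained NIPP1* libraries by 0.21 (SE 0.09, adjusted p = 0.639 in limma), since its 2 libraries at 45990 and 44230 RPM lay above the highest control at 42080 RPM. miR-98 differed by 0.26 (SE 0.17) and let-7g by 0.17 (SE 0.09) in the same direction. let-7b was at -0.38 (SE 0.21), let-7e at -0.36 (SE 0.16), let-7d at -0.20 (SE 0.10), let-7c at -0.15 (SE 0.12) and let-7a at -0.07 (SE 0.10). With each library left out in turn, let-7b ran from -0.59 to -0.23 and let-7e from -0.51 to -0.28. In the same fits let-7c ran from -0.25 to -0.05, let-7a from -0.14 to -0.01 and miR-98 from 0.14 to 0.38. Without libraries 4 and 5, let-7b was at 0.04, let-7e at -0.05, let-7d at -0.09, let-7c at 0.05, let-7a at 0.07, let-7f at 0.10 and miR-98 at 0.03. The GC adjustment left let-7f at -0.0080, let-7g at 0.0076 and miR-98 at 0.05. With it the members' median was -0.23, with 7 of 9 lower, against -0.07, with 5 of 9 lower, without it.

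The non-trained NIPP1* library was compared with the non-trained control library without a test, since each group has 1 library. Among 322 miRNAs averaging 100 reads or more, 3 (0.932%) passed a log2 ratio of 1 in size, and none of the 9 members was among them. At a minimum of 10 reads, 14 of 482 (2.9%) passed, again without a member. let-7g was lower in the NIPP1* library by the largest ratio, -0.34 on the log2 scale (95% counting interval -0.35 to -0.32), from 93175 to 66986 reads. let-7f had a log2 ratio of -0.30 (-0.30 to -0.29), miR-98 one of -0.28 (-0.35 to -0.20) and let-7a one of -0.21 (-0.21 to -0.20). The 4 members with the fewest G and C bases were thus lower in the NIPP1* library. let-7b was higher, at 0.22 (0.21 to 0.23), as were let-7c at 0.09 (0.08 to 0.10) and let-7e at 0.04 (0.02 to 0.05). let-7d was at -0.07, and the interval of let-7i, -0.0126 to 0.0106, holds 0.

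These exact intervals cover counting error only, and reads copied by amplification are not independent molecules. Of the 4 pairs of libraries that share a label, 2 had a member with a larger log2 ratio, let-7b at 0.55 between libraries 3 and 4 and at 0.71 between libraries 3 and 5. In the other 2 pairs the largest ratio was smaller, 0.24 (miR-98) between libraries 4 and 5 and 0.25 (let-7b) between libraries 6 and 7. For let-7g, the libraries of a trained group lay within 0.05 and 0.07 of each other on the log2 scale, less than the ratio of the non-trained libraries. let-7f too varied less within the trained groups, from 36910 to 42080 RPM and from 44230 to 45990 RPM, than between the non-trained libraries, at 34120 and 41900 RPM.

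Libraries 4 and 5, both labelled trained control, stood apart from the other 5 libraries in several members. These libraries were picked out after the values were seen, so the following is a description. let-7a, let-7b, let-7c, let-7d and let-7e were higher in both than in each of the other 5 libraries, 5 of 9 members, as were 15.8% of the 476 miRNAs, and 20.6% of the 476 were lower in both. The log2 difference between libraries 4 and 5 and the others was 0.65 for let-7b, 0.49 for let-7e, 0.35 for let-7c, 0.21 for let-7d and 0.20 for let-7a. It was -0.04 for let-7i, -0.11 for let-7g, -0.14 for let-7f and -0.295 for miR-98.

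These differences ran with base composition only in part. let-7a and let-7g, both with 36.4% G and C bases, stood at 0.197 and -0.105. Among the members with 40.9%, the values ran from -0.04 (let-7i) to 0.49 (let-7e). The ratio of let-7b, the member with most G and C bases, to let-7f, one of the pair with fewest, was 0.742 and 0.865 in libraries 4 and 5 and 0.406, 0.579, 0.464, 0.477 and 0.417 in libraries 1, 2, 3, 6 and 7. Across the 9 members, Pearson's r between GC percent and the log2 deviation of a library from the mean of all 7 was 0.75 in library 4, 0.89 in library 5 and 0.54 in library 2. It was -0.77, -0.73, -0.78 and -0.89 in libraries 1, 3, 6 and 7. The members share most of their sequence, so these are not 9 independent points.

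All miRNAs showed the same signs more weakly. Across the 476 miRNAs, r was 0.35 in both libraries 4 and 5, 0.10 in library 2 and between -0.28 and -0.20 in the other 4. The miRNAs higher in both libraries 4 and 5 had a median GC content of 57.1%, those lower in both one of 43.2%, and all 476 one of 47.8%. The 5 members higher in both, let-7a to let-7e, have 36.4% to 45.5%, all below the median of the 476. The summed level of 6 neuronal miRNAs was also lower in libraries 4 and 5, at 196300 and 197000 RPM against 209000 to 227500 RPM. So were those of 3 red blood cell miRNAs, at 66.21 and 66.77 RPM against 90.06 to 271.7 RPM, and of 4 oligodendrocyte miRNAs, at 3263 and 3512 RPM against 3704 to 5458 RPM. The 4 blood vessel miRNAs were higher, at 17670 and 18450 RPM against 14790 to 17200 RPM, as was miR-122 of liver, at 17.84 and 18.42 RPM against 11.18 to 16.31 RPM. The part of base composition and of these cell types in the levels of the members was not tested.

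**Figure D4:**
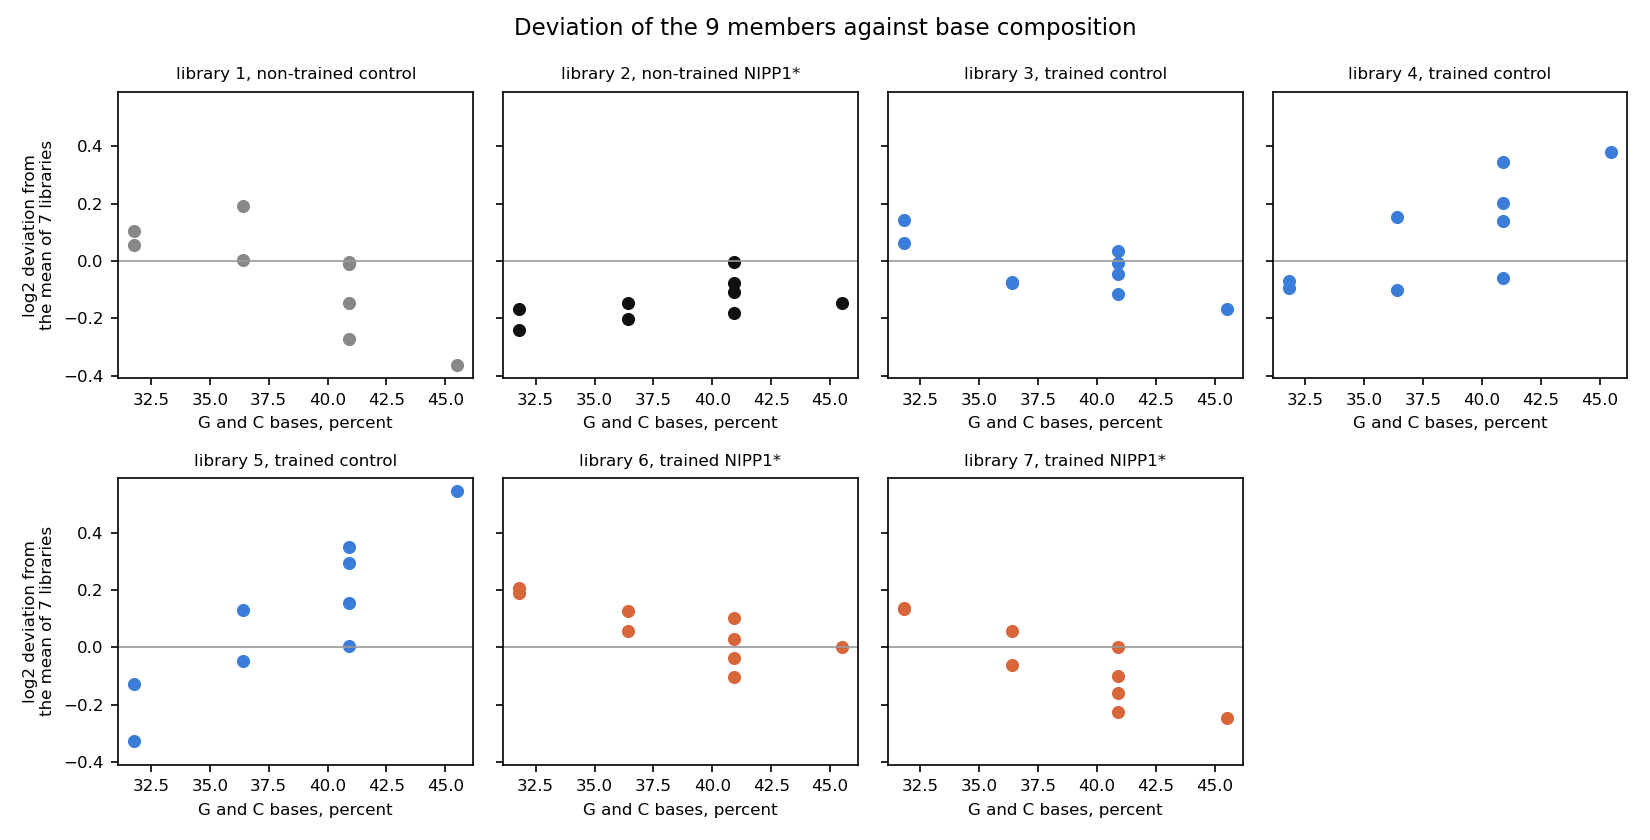
Log2 deviation of each of the 9 members from its mean over the 7 libraries (y axis) against the percent of G and C bases in its mature sequence (x axis), 1 panel per library, coloured by labelled group. The points climb in libraries 4 and 5, with r of 0.75 and 0.89, and descend in libraries 1, 3, 6 and 7.

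The passenger arms, the strands of the hairpins that are usually discarded, were rare. Their reads were between 0.00293% (let-7a) and 2.11% (let-7d) of the reads of both arms, as means over 7 libraries. let-7d* stood out: its level of 230.4 ± 77.9 RPM (SD, n = 7) made up between 59.3% and 77.3% of all passenger reads of the family in a library. It is shown because its level is nearest to that of a guide.
let-7d*: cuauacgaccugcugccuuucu

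let-7d* was at 161.9 and 229.7 RPM in libraries 1 and 2, 160.2, 322.4 and 350.7 RPM in libraries 3, 4 and 5, and 218.0 and 169.7 RPM in libraries 6 and 7. Its share of both arms was thus highest in libraries 4 and 5, at 2.72% and 2.92%, and lowest in library 3, at 1.51%. Its GC content, 50.0%, is above that of every guide. Trained against non-trained, its log2 fold change was 0.27 (SE 0.32, adjusted p = 0.893 in limma).

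The next passenger was let-7f-2*, from 47.17 to 63.3 RPM, which with miR-98* at 0.82 to 1.49 RPM comes from the Huwe1 cluster. let-7g* ranged from 15.56 to 20.49 RPM, let-7e* from 7.65 to 11.77 RPM, let-7b* from 7.09 to 10.53 RPM and let-7i* from 5.24 to 8.78 RPM. let-7c-1*, let-7a-2* and let-7f-1* did not exceed 4.53, 1.69 and 1.73 RPM. The sequence shared by let-7a-1* and the opposite arm of let-7c-2 had 1 read, in library 3. In none of the 5 tested comparisons did limma call any of the 7 passengers that passed the filter or give one an unadjusted p under 0.05.

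**Figure D5:**
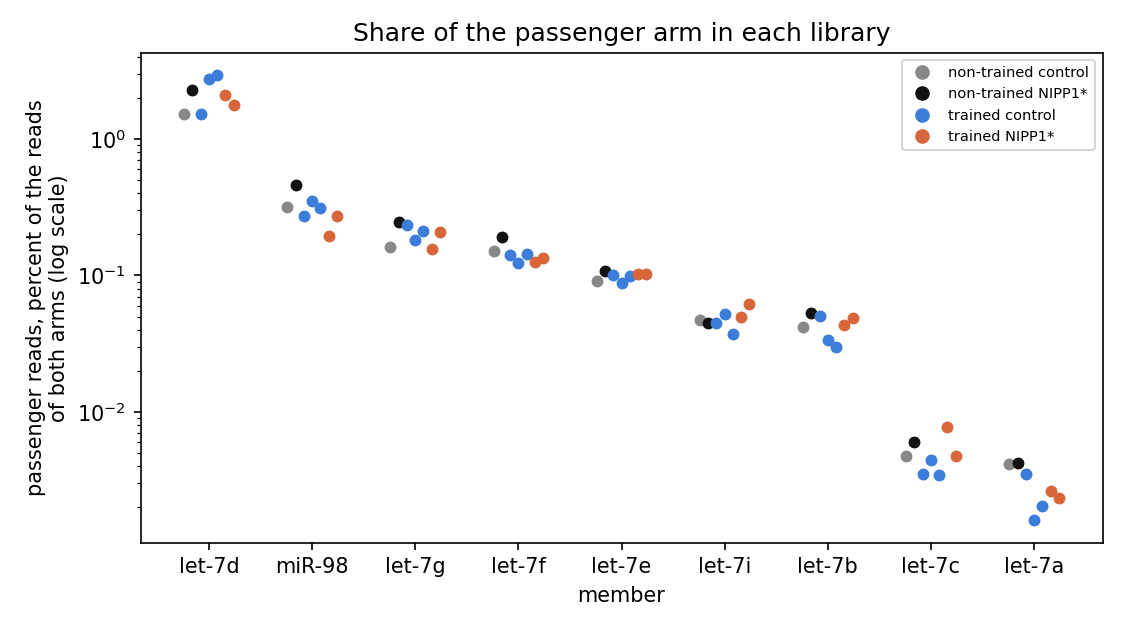
Passenger reads as a percent of the reads of both arms (log scale) for each member, 1 point per library coloured by labelled group. let-7d lies above all others at 1.51% to 2.92%, and let-7a lies lowest, below 0.005% in each library.

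Of the miRNAs beside let-7 hairpins, the miR-125 group was the most abundant. miR-125b-5p was at 93850 ± 11300 RPM (SD, n = 7), miR-99a at 13420 ± 965 RPM, miR-125a-5p at 6149 ± 1160 RPM, miR-100 at 4910 ± 199 RPM and miR-99b at 3177 ± 352 RPM. limma called 0 of them and 0 of their tested opposite arms in the 5 comparisons. miR-125a-5p, which lies next to let-7e, was at 5039 and 6531 RPM in libraries 1 and 2, at 5985, 7536 and 7732 RPM in libraries 3, 4 and 5, and at 5373 and 4845 RPM in libraries 6 and 7. Like let-7e it was highest in libraries 4 and 5, and its trained NIPP1* libraries lay below the trained controls by 0.46 on the log2 scale (SE 0.14, adjusted p = 0.639 in limma). That direction turns with the trained groups exchanged, and without libraries 4 and 5 the value was -0.23. In the difference of the training effects, miR-99b was at -0.64 (SE 0.18), miR-125a-5p at -0.84 (SE 0.26) and miR-125b-5p at -0.59 (SE 0.18), each with a limma adjusted p of 0.577. With the trained groups exchanged these were -0.29, 0.09 and -0.15, after the GC adjustment -0.33, -0.82 and -0.58, and without libraries 4 and 5 -0.64, -0.60 and -0.42.

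Outside the family and its neighbours, the level most like that of the summed family was that of miR-455, with Pearson's r of 0.897 over 7 libraries among 297 candidates that averaged 100 reads or more. miR-181a and miR-1981 followed with r of 0.862, miR-145* with 0.854 and miR-652 with 0.844. Apart from miR-145*, they were highest in libraries 4 and 5, and miR-455 reached 42.86 and 42.47 RPM there against 20.49 to 34.59 RPM elsewhere. miR-145* was highest in library 5 at 57.43 RPM, with library 6 at 52.85 RPM above library 4 at 52.08 RPM. Their GC contents were 57.1%, 47.8%, 58.3%, 36.4% and 57.1%.

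Neuronal miRNAs were abundant in every library, as in brain tissue. The 6 neuronal miRNAs summed to between 196300 and 227500 RPM, and miR-122 of liver to between 11.18 and 18.42 RPM. Choroid plexus miRNAs, 5 of 6 of them found in every library, ranged from 557.5 to 2719 RPM, with overlapping trained and non-trained libraries. Each library held between 7285130 and 10017954 miRNA reads, so that even the rarest member, miR-98, rested on 2264 to 4005 reads.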

How the data were processed

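Small RNA of mouse hippocampus was sequenced in 7 libraries (TruSeq small RNA, HiSeq), and groups follow the labels. Inserts of 19 to 26 nt were mapped by the authors to NCBI37/mm9 with bowtie in the ncPRO-seq pipeline (CASAVA 1.7.0 and bedtools are also named in the submitters' processing notes) who deposited the percent of the miRNA reads for each mature locus. The mismatches allowed are not given in the sources used here. The authors also deposited 4 tables of comparisons, whose signal averages size-factor scaled reads over a group, beside fold changes and p-values, which were not used. In 1 table, 2 columns of values per library name no sample and were not used.

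Percentages were converted to RPM. Copies of a mature sequence were averaged, since each carries nearly all of its reads. Reads were restored from the smallest steps in the percentages, with 99.09% to 99.71% of the low values within 0.15 of a whole read. Per library this gave 8890770, 8072590, 8200574, 8352534, 7818139, 7285130 and 10017954 reads for libraries 1 to 7. Names were joined by hairpin and reads, and sequences came from RefSeq (GRCm38.p6), coordinates from the files.

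Groups were compared with limma on log2(RPM + 0.5) with a trend, in a model of the 4 labelled groups or of trained against non-trained, over miRNAs that averaged 10 reads or more, with a threshold of 0.05 on the Benjamini-Hochberg adjusted p. All p-values are two-sided. The study's methods name a Wilcoxon test, which 1 to 3 libraries per group cannot pass. The fit was checked on simulated data. For the single non-trained libraries, the log2 ratio was given an exact binomial 95% interval, conditional on the summed reads, and a size of at least 1 was counted.

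The text names the 9 members, their passengers, the miRNAs of adjacent hairpins, any other miRNA with the seed, and the 5 whose level is most like that of the summed family. The members and lists, and the markers, were chosen with earlier results of these data known. Alternatives were TMM scaling, DESeq2's size factors, pseudocounts of 0.1 and 1, other read minimums, edgeR, DESeq2, only the groups compared, the trained groups exchanged, leaving out each library, and, chosen after seeing the data, a GC adjustment and leaving out libraries 4 and 5. Tests used limma 3.58.1 in R 4.3.3, with DESeq2 1.42.0 and edgeR 4.0.16 as alternatives, and tables were made with pandas 2.3.3, pysam 0.24.0, scipy 1.17.1 and numpy 2.4.6 in Python 3.11.15.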

Additional observations from a re-analysis of the deposited data

How the results depend on the processing

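No member was called in any comparison under any of the alternatives, and the count of members past a log2 ratio of 1 between the non-trained libraries stayed at 0. Summed over loci in place of the mean of copies, the family took 33.7% of the reads rather than 20.2%, since copies are then counted repeatedly. No paired analysis was possible because the labels give no replicate numbers that pair libraries across groups. Of 792 alternative log2 fold changes of members, 715 kept their direction and 77 turned, and the cause was not tested except where the exchange of groups or of signs builds it in. Each member rested on at least 2264 reads in a library. The lowest adjusted p of a member under any alternative was 0.0689, for let-7e between the trained groups without library 3 (trained control replicate 1), against 0.639 with all libraries.

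For trained against non-trained controls, the exchange of the trained groups gave let-7a -0.006, let-7d -0.0885, let-7e -0.0188, let-7f 0.1064, let-7i 0.0177 and miR-98 0.0642. Leaving out libraries 4 and 5 gave let-7a -0.0799, let-7f 0.0065, let-7i 0.0374 and miR-98 0.0374, and the GC adjustment let-7f 0.1209, let-7i 0.1018 and miR-98 0.0223. let-7i was 0.0876 with TMM, 0.0912 with DESeq2's size factors, 0.0882 in edgeR and 0.0922 in DESeq2. Leaving out each library in turn moved let-7i between -0.0236 and 0.0223.

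For trained against non-trained NIPP1* mice, the GC adjustment gave let-7b -0.0078 and let-7i -0.0543, and the exchange let-7d 0.1745, let-7e 0.3011 and let-7i -0.0022. let-7d was 0.0013 with TMM, 0.0188 with DESeq2's size factors, 0.0025 in edgeR and 0.0203 in DESeq2. Leaving out each library gave let-7b -0.0997 to 0.1497, let-7d -0.0815 to 0.0394 and let-7e -0.1174 to 0.0035.

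Between the trained groups, the exchange turned all signs, to let-7a 0.0712, let-7b 0.376, let-7c 0.1478, let-7d 0.1956, let-7e 0.3581, let-7f -0.2065, let-7g -0.1658, let-7i -0.021 and miR-98 -0.2629. Without libraries 4 and 5, let-7a was 0.074, let-7b 0.0433, let-7c 0.0469 and let-7i -0.0197, and after the GC adjustment let-7f -0.008 and let-7i -0.081. let-7i was -0.0537 with TMM, -0.0316 with DESeq2's size factors, -0.0543 in edgeR and -0.0326 in DESeq2, and -0.0045 to 0.0413 with each library left out.

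For the difference of the training effects, the GC adjustment gave let-7a -0.1407 and let-7i -0.1561, and the exchange let-7b 0.1607, let-7c 0.058, let-7d 0.263, let-7e 0.3198 and let-7i -0.0199. let-7i was -0.0465 with TMM, -0.0326 with DESeq2's size factors, -0.047 in edgeR, -0.0334 in DESeq2 and -0.0186 without libraries 4 and 5, and -0.0035 to 0.0423 with each library left out.

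For all trained against non-trained libraries, let-7d was -0.0234, let-7e -0.0211 and let-7g 0.0141 without libraries 4 and 5. let-7g was 0.0338 with TMM, 0.0422 with DESeq2's size factors, 0.0248 in edgeR, 0.0344 in DESeq2 and 0.0104 after the GC adjustment. With each library left out, let-7f ran from -0.0175 to 0.2784, let-7g from -0.1986 to 0.1382, let-7i from -0.0024 to 0.0205 and miR-98 from -0.0936 to 0.1821, and the lowest values of let-7f, let-7g and miR-98 came without library 2, their highest without library 1.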
